A study of Mus musculus with 20 samples.

Results

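Collagen genes were taken as every gene of the deposited left ventricle tables whose symbol consists of Col, a type number, the letter a and a chain number. This rule found 42 of the 20752 genes listed in either table, 42 in the table for 2 weeks and 41 in that for 24 weeks, where Col6a4 was not listed. The 42 genes comprised 11 fibrillar collagens, 6 basement membrane collagens of type IV and 25 others. The hearts came from mice labelled Control or dnOGAh-Tg, the second carrying cardiac specific overexpression of a dominant negative form of O-GlcNAcase (OGA), the enzyme that removes O-linked N-acetylglucosamine from proteins. Induction was by doxycycline food for 2 or 24 weeks. There were 4 groups of 5 libraries. The labels place the transgene's expression in the heart without naming the promoter, and they state neither age, sex, strain nor the alleles that the Control mice carry. Each library carries its own number, but nothing states that a library is 1 animal, so p-values measure the spread between these samples.

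Collagens are triple helical proteins of the extracellular matrix, built from chains that may be products of the same gene or of several. Fibrillar collagens, mainly types I and III in the heart, assemble into the fibres that carry load between cardiomyocytes, while type IV collagen forms the sheet-like network of the basement membrane around cardiomyocytes and vessels. The remaining types coat fibrils, link them to basement membranes, form short-chain networks or beaded filaments, or span the cell membrane. Cardiac fibroblasts are the main source of types I and III, and a rise in fibrillar collagen is a known feature of cardiac fibrosis.

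Values are normalised counts, that is, reads per gene divided by a size factor of the library by the authors, and are given in the order of replicates 1 to 5. Reads assigned to genes ranged from 22804712 to 50996272 per library. Oga, which takes up reads of the transgene, stood at 2521 to 4269 over the 10 Control libraries and at 21661 to 56078 in the dnOGAh-Tg libraries of 24 weeks. In dnOGAh-Tg at 2 weeks it was 8608, 6406, 56985, 61206 and 42127. The first and second of these share the code F11 in their titles with Control 1 and Control 2, whose meaning the labels do not give. At 24 weeks each Control shares its code with the dnOGAh-Tg library of the same number. The mitochondrial chromosome took 14.9 to 17.1% of reads in Control and 11.9 to 13.5% in dnOGAh-Tg at 24 weeks, which moved with the group and whose part in the results was not tested.

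Particular libraries stood apart in genes of other tissues. Control 2 at 2 weeks held the atrial myosin light chain Myl7 at 2652, against 0 to 7.25 in the other 9 libraries of that time, and the cartilage protein gene Chad at 786, against 0 to 39.4. It was the highest Control in 25 of the 35 collagen genes tested at 2 weeks, and Control 5 was the lowest in 26. dnOGAh-Tg 4 at 24 weeks held Myl7 at 912 (0 to 13.5 in the other 9 libraries) and Chad at 59.9 (0 to 4.45). It was the highest dnOGAh-Tg library in 25 of the 33 collagen genes tested at 24 weeks. The counts of called collagens and the changes of some genes are therefore also given without dnOGAh-Tg 4 at 24 weeks. At 2 weeks they are also given without Control 2 and by title code.

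Collagen genes took up 0.167 to 0.454% of all reads in a library. At 24 weeks the fibrillar genes took 0.0508 to 0.118% in Control and 0.102 to 0.176% in dnOGAh-Tg, 2 ranges that overlapped through Control 1. The basement membrane genes took 0.0852 to 0.116% in Control and 0.0910 to 0.178% in dnOGAh-Tg, so the groups overlapped. All other collagens together took 0.0375 to 0.0635% in Control and 0.0665 to 0.0998% in dnOGAh-Tg, with no overlap. In these bulk samples, fewer cells of a type and less RNA per cell cannot be told apart.

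**Figure D1:**
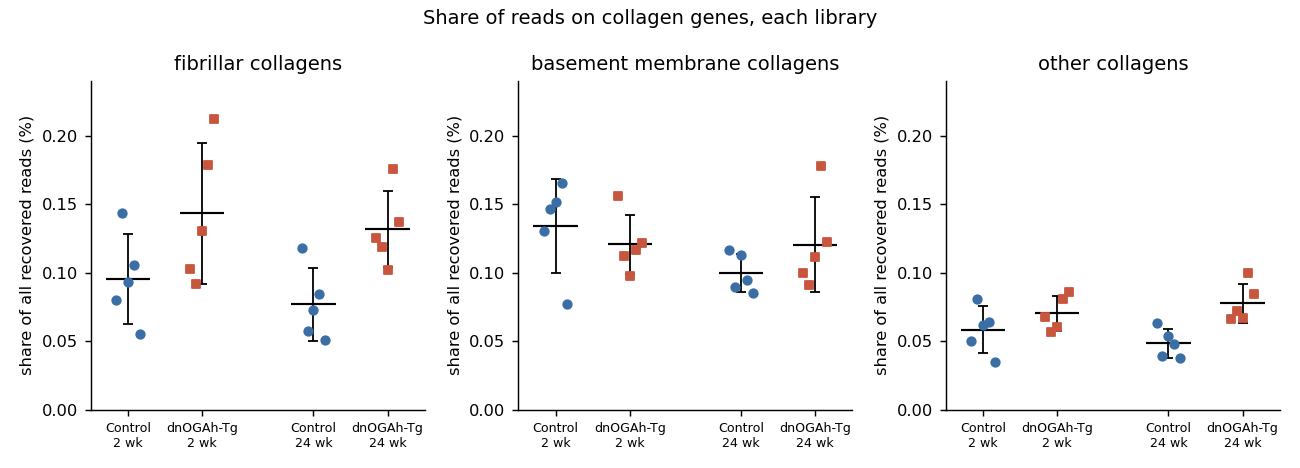
Share of all recovered reads (%) that fell on fibrillar, basement membrane and other collagen genes in each of the 20 libraries; points are libraries, horizontal lines the means of 5 and bars the SD. The other collagens of the 24-week dnOGAh-Tg libraries all lie above 0.0665%, while the highest Control of that time lies at 0.0635%.

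On a per-length scale, normalised counts per kilobase of exon, the most abundant collagen gene of the Control ventricle was Col4a1 at both times, followed by Col4a2, Col3a1 and Col1a2. At 24 weeks the Control levels per kilobase were 2317 ± 220.1 (SD, n = 5) for Col4a1, 1864 ± 163 for Col4a2, 1596 ± 544 for Col3a1 and 1044 ± 308 for Col1a2. The next group, Col15a1 at 703 ± 108, Col1a1 at 695 ± 215 and Col6a1 at 638 ± 108, lay within their SDs of each other. In Control, Col4a1 and Col4a2 lay further apart than either SD, while the ranges of mean ± SD of Col4a2 and Col3a1, and of Col3a1 and Col1a2, overlapped. In dnOGAh-Tg at 24 weeks Col4a1 stood at 2438 ± 679, Col3a1 at 2218 ± 434, Col4a2 at 1982 ± 469 and Col1a2 at 1892 ± 258 per kilobase, so all 4 lay within the larger of their SDs of the next. The lowest members included Col2a1, Col24a1 and Col9a1, the second of which ran from 0 to 7.55 normalised counts over all libraries.

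The first comparison asked which collagen genes differed between dnOGAh-Tg and Control after 24 weeks. Of the 33 collagen genes that reached 10 normalised counts in 5 or more of the 10 libraries, 14 rose, none fell and 19 were not called (limma, Benjamini-Hochberg adjusted p under 0.05 over all 14676 genes tested). Among all tested genes 11.3% rose and 11.1% fell, 22.5% in all. The median log2 change of the 33 collagens was 0.48, and that of all tested genes was -0.00. A positive change was seen in 28 of the 33, and 19 had an unadjusted p under 0.05, against 34.9% of all genes. By class, 3 of 8 fibrillar, 1 of 6 basement membrane and 10 of 19 other collagens rose. Without dnOGAh-Tg 4 the count was 13, with Col6a1 no longer called and 10.8% of all genes rising. Without Control 1, which was the highest Control in 18 of the 33, it was 17, against 9.65% of all genes. With the title code as a block it was 17 as well, with Col3a1, Col4a3 and Col5a2 added and 13.1% of all genes rising. edgeR gave 15 higher (11.4% of all genes), and DESeq2 gave 16 higher and 1 lower (13.4 and 13.1% of all genes). At an adjusted p under 0.01 limma gave 9, against 6.38% of all genes.

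**Figure D2:**
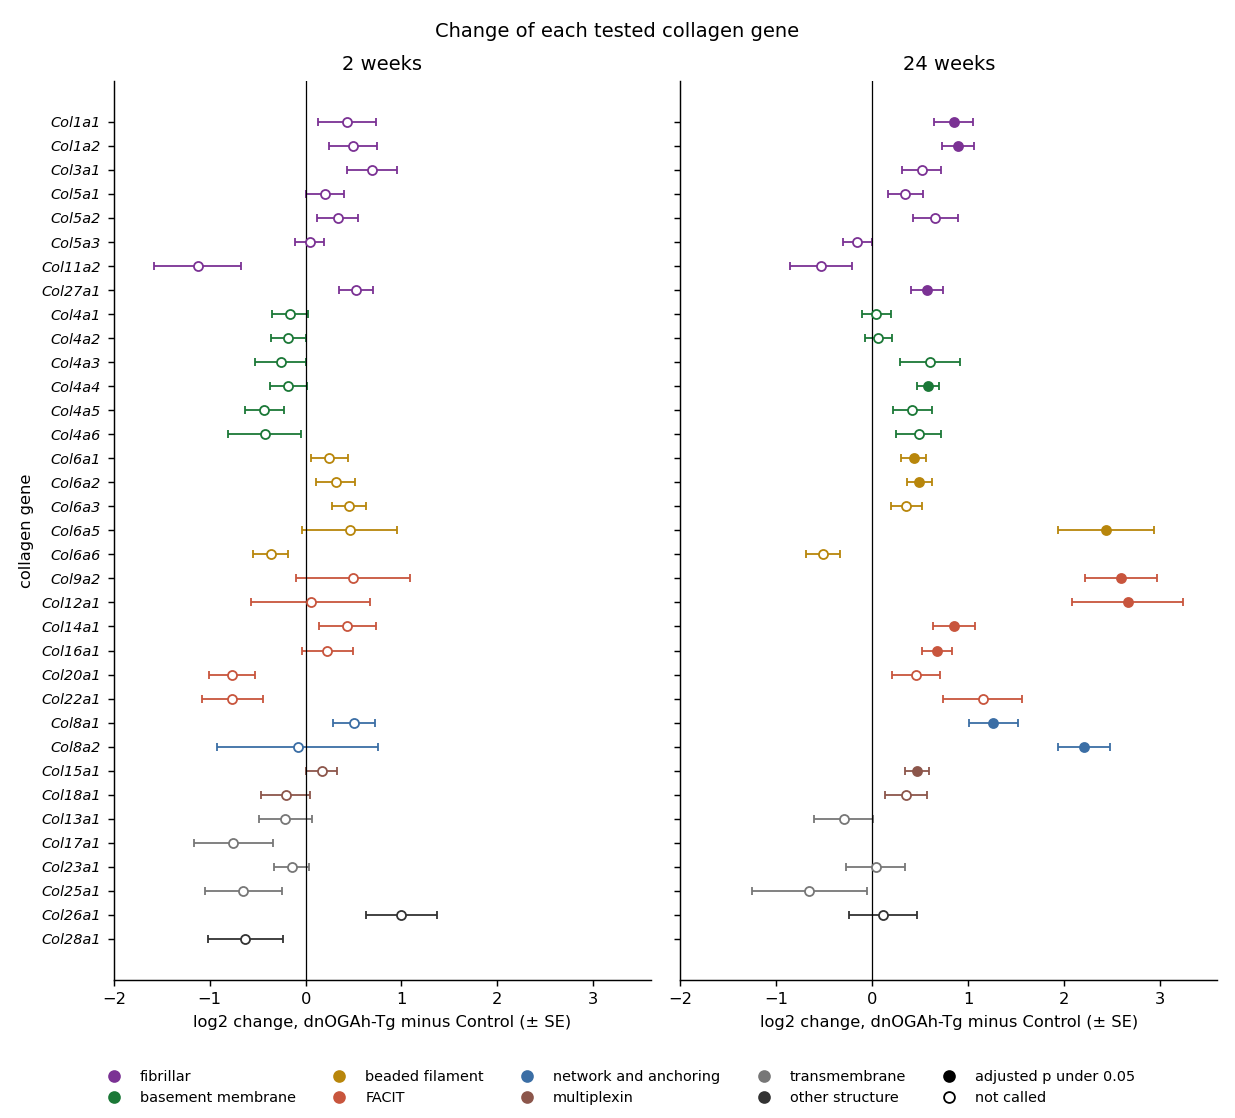
Log2 change, dnOGAh-Tg minus Control, of each tested collagen gene at 2 weeks (35 genes) and 24 weeks (33 genes), with SE bars from limma and 5 libraries per group; colours give the structural class and filled points an adjusted p under 0.05. The 14 filled points all lie right of 0 in the 24-week panel, and the 2-week panel holds none.

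Among the fibrillar collagens, both chains of type I collagen rose at 24 weeks. Col1a1 (chr11:94827050-94843868, all gene positions on GRCm39 as the tables give them), which encodes the alpha 1 chain, was 6139, 3536, 3812, 4383 and 2745 in Control and 6630.0, 7529, 5529.8, 10206 and 6691 in dnOGAh-Tg. It rose from 4123 ± 1272 to 7317 ± 1764 (mean ± SD, n = 5), a log2 change of 0.85, SE 0.20, adjusted p = 0.00872. Every dnOGAh-Tg library lay above 4 of the 5 Control libraries, and the groups overlapped only through Control 1. Col1a2 (chr6:4504814-4541544), the alpha 2 chain of the same molecule, was 8261, 4596, 5401, 5692 and 3958 in Control and 9809, 10284, 8249.6, 12112 and 10133 in dnOGAh-Tg. It rose from 5582 ± 1646 to 10118 ± 1377 (0.89, SE 0.17, adjusted p = 0.00237), with the lowest dnOGAh-Tg library just below Control 1. Without dnOGAh-Tg 4 the changes were 0.72, adjusted p = 0.0179 for Col1a1 and 0.83, adjusted p = 0.00613 for Col1a2.

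Type III collagen, which is laid down in thinner and more compliant fibres, was not called in the comparison of the groups. Col3a1 (chr1:45350698-45388866) was 13318, 6628, 7751, 10598 and 6107 in Control and 12331, 11035, 9358, 15808 and 13179 in dnOGAh-Tg, a change of 0.52, SE 0.21, adjusted p = 0.0921. Control 1 exceeded 4 of the 5 dnOGAh-Tg libraries, and without Control 1 the gene was called (0.68, adjusted p = 0.0201). It was also called with the title code as a block (0.52, SE 0.15, adjusted p = 0.0279). Without dnOGAh-Tg 4 it was not called (0.42, limma adjusted p = 0.171). The promoter windows of Col1a2 and Col3a1, genes of the heart's main fibres, were picked because they carried different letters. The difference between them is therefore given by that choice, and its part in the changes was not tested. Col1a1 had no window. Windows run from 250 bases before to 50 after the start of the gene (RefSeq, GRCm38.p6). Capitals mark, on either strand, the CCAAT box, the Sp1-type letters GGGCGG and the TATA-type letters TATAAA. The Col1a2 window lies at chr6:4505368-4505667, plus strand, and the Col3a1 window at chr1:45311288-45311587, plus strand.
Col1a2: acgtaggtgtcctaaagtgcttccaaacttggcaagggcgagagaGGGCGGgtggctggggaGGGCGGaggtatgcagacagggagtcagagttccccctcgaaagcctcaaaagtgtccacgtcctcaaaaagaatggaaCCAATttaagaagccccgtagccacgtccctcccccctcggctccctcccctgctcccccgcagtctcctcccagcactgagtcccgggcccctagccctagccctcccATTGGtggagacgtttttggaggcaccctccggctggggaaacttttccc
Col3a1: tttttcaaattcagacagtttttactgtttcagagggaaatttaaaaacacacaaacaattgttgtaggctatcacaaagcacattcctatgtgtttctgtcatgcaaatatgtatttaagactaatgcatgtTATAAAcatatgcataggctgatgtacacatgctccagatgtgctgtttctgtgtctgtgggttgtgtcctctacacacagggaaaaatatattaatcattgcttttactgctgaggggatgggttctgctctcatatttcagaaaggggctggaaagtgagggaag
The Col1a2 window held 2 matches to CCAAT and 2 to GGGCGG, and the Col3a1 window held 1 to TATAAA, at position -117 from the start. The CCAAT box was found in 37.4% of all 32851 windows and in 13 of the 36 windows of collagen genes, which matched 33 of the 42 members. GGGCGG was found in 35.7% of all windows and in 23 of the 36, and TATAAA in 13.6% and in 4 of the 36.

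Type V collagen joins type I fibrils and regulates their diameter. Col5a1 (chr2:27776437-27929526) was 2155, 1232, 1675, 1739 and 1110.4 in Control and 1744, 1818, 1703, 2779 and 1887 in dnOGAh-Tg, a change of 0.34, SE 0.18, adjusted p = 0.203. Col5a2 (chr1:45413481-45542442) was 1669, 758, 1029.9, 1111 and 672 in Control and 1631, 1233, 1277, 2419 and 1542 in dnOGAh-Tg (0.66, SE 0.24, adjusted p = 0.0645). Neither gene separated the groups, and dnOGAh-Tg 4 was the highest library in each. Col5a2 was called without Control 1 (0.85, adjusted p = 0.0137) or without dnOGAh-Tg 2 (0.75, adjusted p = 0.0493), and with the title code as a block (0.66, SE 0.16, adjusted p = 0.0138). Without dnOGAh-Tg 4 neither was called, with 0.22 for Col5a1 (limma adjusted p = 0.382) and 0.50 for Col5a2 (limma adjusted p = 0.126). The third chain of the type, Col5a3, had a change of -0.16. Col27a1 (chr4:63132241-63253228), a fibrillar collagen known from cartilage, rose from 120.4 ± 31.2 to 176 ± 18.9 (0.57, SE 0.16, adjusted p = 0.0235). Its libraries were 174, 103, 98.8, 123 and 104 in Control and 201, 168, 154, 190.3 and 168 in dnOGAh-Tg, so the groups overlapped in Control 1 alone. The call was lost when Control 2, Control 3, Control 5 or dnOGAh-Tg 1 was left out, with an adjusted p of 0.0511 to 0.064. Col11a2, the remaining tested fibrillar gene, had a change of -0.53 (adjusted p = 0.269). Col2a1, Col11a1 and Col24a1 did not reach the minimum for testing. Of these, Col11a1 is named after its values were seen. It was 6.39, 0, 6.24, 2.16 and 0 in Control and 25.2, 36.5, 13.2, 59.9 and 7.05 in dnOGAh-Tg. The groups did not overlap, but only narrowly and at a few reads, with 6.39 in Control 1 against 7.05 in dnOGAh-Tg 5. The highest value was that of dnOGAh-Tg 4, the library that also held Chad. Among all tested genes 8.49% were higher without overlap.

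**Figure D3:**
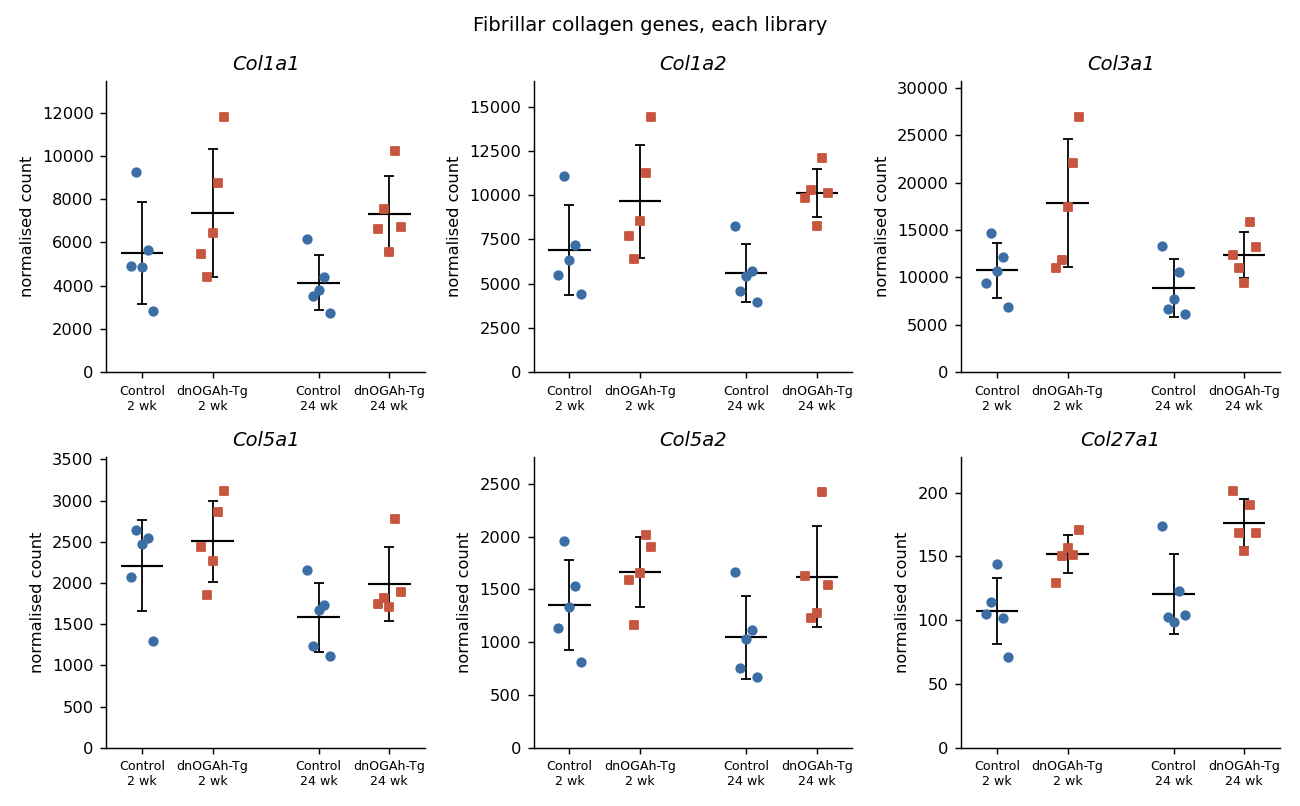
Normalised counts of 6 fibrillar collagen genes in each library at both times; points are libraries, horizontal lines the means of 5 and bars the SD. Col1a1, Col1a2 and Col27a1 rose at 24 weeks, where 1 Control library stays close to the dnOGAh-Tg values.

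The major chains of basement membrane collagen were close in both groups at 24 weeks. Col4a1 (chr8:11248423-11362826), which with Col4a2 forms the common type IV molecule, was 16836, 14635, 16742, 14995 and 13428 in Control and 12834, 13525, 14575, 23912 and 15794 in dnOGAh-Tg. Its change was 0.04, SE 0.15, adjusted p = 0.88. Apart from dnOGAh-Tg 4, the dnOGAh-Tg libraries lay within or below the Control range, and without that library the change was -0.11, adjusted p = 0.465. Col4a2 (chr8:11362805-11499287) was 13201, 11729, 13060.2, 10969 and 11156 in Control and 11083, 10065, 12335, 17883 and 12571 in dnOGAh-Tg, a change of 0.06, SE 0.14, adjusted p = 0.777. Again dnOGAh-Tg 4 alone lay above every Control.

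The Col4a1 and Col4a2 genes lie head to head on opposite strands, and their annotated bodies overlap by 22 bases, where reads cannot be assigned without strand. Their promoter windows are shown because the ratio of both genes stayed within a narrow range in all libraries. On GRCm38.p6 the Col4a1 window lies at chr8:11312777-11313076, minus strand and the Col4a2 window at chr8:11312555-11312854, plus strand, and the windows share 78 bases.
Col4a1: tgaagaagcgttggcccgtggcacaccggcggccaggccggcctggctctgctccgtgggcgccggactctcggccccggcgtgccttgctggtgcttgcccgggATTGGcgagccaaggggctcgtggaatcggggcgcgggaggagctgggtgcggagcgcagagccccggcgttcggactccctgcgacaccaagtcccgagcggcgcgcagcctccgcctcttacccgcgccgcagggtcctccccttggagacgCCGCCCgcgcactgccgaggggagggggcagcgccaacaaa
Col4a2: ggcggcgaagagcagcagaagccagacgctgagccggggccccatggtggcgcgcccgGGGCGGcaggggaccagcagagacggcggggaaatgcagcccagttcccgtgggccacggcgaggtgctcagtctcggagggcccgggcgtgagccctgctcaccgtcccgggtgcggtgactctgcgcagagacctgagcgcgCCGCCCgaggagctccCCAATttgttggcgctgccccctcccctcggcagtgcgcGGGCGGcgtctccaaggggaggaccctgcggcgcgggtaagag
Each window held 1 match to CCAAT, and GGGCGG was matched once in the Col4a1 window and 3 times in that of Col4a2. The Col4a1 match to GGGCGG and the last of those in Col4a2 are the same site, read on opposite strands of the shared bases. The level of Col4a1 varied 1.86-fold from the lowest to the highest of the 10 libraries of 24 weeks, whereas its ratio to Col4a2 stayed between 1.16 and 1.37. At 2 weeks the level varied 2.07-fold and the ratio stayed between 1.26 and 1.41.

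The minor chains of type IV collagen form other molecules, the best known of them in the glomerular basement membrane of the kidney. Col4a4 (chr1:82426144-82564570) was 269.5, 238, 320.4, 273 and 251.96 in Control and 349, 359, 426, 472 and 422 in dnOGAh-Tg. It rose from 271 ± 31.2 to 406 ± 51.03 (0.58, SE 0.12, adjusted p = 0.00346), and every dnOGAh-Tg library exceeded every Control. Its call held without dnOGAh-Tg 4 (0.52, adjusted p = 0.0087). Col4a3, which lies 71 bases from Col4a4 on the other strand, had a change of 0.61, SE 0.31, adjusted p = 0.188, and was called with the title code as a block (0.61, SE 0.20, adjusted p = 0.0496). Col4a5 and Col4a6, a head-to-head pair on chromosome X, had changes of 0.42 and 0.48 (adjusted p = 0.163 each). None of these 3 genes was called in the comparison without a block, and none separated the groups.

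The short-chain network collagens of type VIII, which vascular cells and endothelium are known to secrete, both rose. Col8a1 (chr16:57444621-57575100) was 1328, 517, 1099, 669.6 and 582 in Control and 1850.4, 1399, 1728, 2857 and 1832 in dnOGAh-Tg. It rose from 839 ± 355 to 1933 ± 547 (1.26, SE 0.26, adjusted p = 0.00363), and the groups did not overlap. Col8a2 (chr4:126180586-126208123) was 19.2, 22.4, 11.4, 12.96 and 10.1 in Control and 55.97, 88.96, 47.9, 94.8 and 79.5 in dnOGAh-Tg. It rose from 15.2 ± 5.298 to 73.4 ± 20.6 (2.21, SE 0.27, adjusted p = 0.00012), again with every dnOGAh-Tg library above every Control. Without dnOGAh-Tg 4 the changes were 1.11, adjusted p = 0.00786 and 2.11, adjusted p = 0.000445. Their promoter windows are shown because neither gene overlapped between the groups. The Col8a1 window lies at chr16:57754688-57754987, minus strand and the Col8a2 window at chr4:126286544-126286843, plus strand on GRCm38.p6.
Col8a1: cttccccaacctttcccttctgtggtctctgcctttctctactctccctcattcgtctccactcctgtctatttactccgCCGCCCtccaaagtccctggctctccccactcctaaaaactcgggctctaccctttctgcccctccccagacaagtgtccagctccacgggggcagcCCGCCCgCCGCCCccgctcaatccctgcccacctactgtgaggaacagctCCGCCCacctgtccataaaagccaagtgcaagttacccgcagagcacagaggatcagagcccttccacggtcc
Col8a2: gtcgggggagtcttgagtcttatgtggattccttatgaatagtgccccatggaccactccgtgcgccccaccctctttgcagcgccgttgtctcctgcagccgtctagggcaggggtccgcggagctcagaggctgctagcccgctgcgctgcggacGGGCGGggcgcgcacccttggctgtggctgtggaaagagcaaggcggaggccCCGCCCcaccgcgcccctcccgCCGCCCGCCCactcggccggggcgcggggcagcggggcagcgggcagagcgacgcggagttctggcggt
Each held 4 matches to GGGCGG, of which a pair in Col8a2 overlap, and none to CCAAT or TATAAA. Col7a1, the anchoring fibril collagen, was too low for testing and is named after its values were seen. It was 5.33, 4.07, 5.202, 3.24 and 6.33 in Control and 21.9, 9.79, 22.5, 35.6 and 14.1 in dnOGAh-Tg. These low values did not overlap, against 8.49% of all tested genes higher without overlap.

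The FACIT collagens, which attach to the surface of fibrils, rose in 4 of 6 tested genes. Col12a1 (chr9:79506273-79626113), a fibril-associated collagen of load-bearing tissues, was 80.96, 11.2, 35.4, 11.9 and 12.7 in Control and 140.5, 176, 73.3, 439 and 78.5 in dnOGAh-Tg. It rose from 30.4 ± 30.03 to 182 ± 150.3 (2.66, SE 0.58, adjusted p = 0.00551), the largest log2 change among the tested collagens with all libraries included. Its spread was wide, Control 1 lay above the lowest dnOGAh-Tg libraries, and without dnOGAh-Tg 4 the change was 2.26, adjusted p = 0.0106, which is below those of Col9a2 (2.599) and Col6a5 (2.303) in the same libraries. Col9a2 (chr4:120896582-120912519), a chain of the type IX collagen of cartilage, was 4.26, 12.2, 14.6, 3.24 and 7.597 in Control and 31.8, 64.9, 62.9, 47.7 and 45.3 in dnOGAh-Tg. It rose from 8.37 ± 4.92 to 50.6 ± 13.7 (2.59, SE 0.37, adjusted p = 0.000369) with no overlap, from counts near the minimum for testing. Control 1, 4 and 5 lay under 10, so the gene entered the test only through its dnOGAh-Tg values. The partner chains Col9a1 and Col9a3 were not tested, and Col9a1 was at 0 in all Control and 4 dnOGAh-Tg libraries. Col14a1 (chr15:55171146-55384199), which binds fibrils through decorin, was 667, 308, 316, 354 and 306 in Control and 639, 736, 463, 725 and 859.5 in dnOGAh-Tg (0.85, SE 0.22, adjusted p = 0.0139). Col16a1 (chr4:129941633-129993076) was 656, 420.3, 375, 475 and 361 in Control and 699, 781, 579.7, 750.5 and 783 in dnOGAh-Tg (0.68, SE 0.16, adjusted p = 0.00747). In both genes every dnOGAh-Tg library lay above 4 of the 5 Controls, and Control 1 reached into the dnOGAh-Tg range. Col22a1 and Col20a1 were not called, with changes of 1.15 (adjusted p = 0.0608) and 0.46 (adjusted p = 0.215).

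Type VI collagen forms beaded filaments around cells, and 3 of its 5 tested genes rose. Col6a1 (chr10:76544626-76562002) was 3269, 2325, 2613, 2763 and 2108 in Control and 3117, 3685, 2903, 4354 and 3551 in dnOGAh-Tg (0.43, SE 0.13, adjusted p = 0.0339). Col6a2 (chr10:76431596-76459464) was 3726, 2962, 3165, 3346 and 2492 in Control and 3842, 4915, 3535, 5414 and 4443 in dnOGAh-Tg (0.49, SE 0.13, adjusted p = 0.0177). Both rose by similar amounts and overlapped through Control 1. Col6a1 was no longer called when Control 2, 3, 4 or 5 or dnOGAh-Tg 2, 4 or 5 was left out (adjusted p from 0.0515 to 0.0869), and neither was called in a fit of all 20 libraries together. Col6a3 (chr1:90693645-90771693), the third chain of the common molecule, was 1717, 1068, 1385, 1183 and 912 in Control and 1411, 1425, 1401, 2052 and 1616 in dnOGAh-Tg. It was not called (0.35, SE 0.16, adjusted p = 0.142), but was called without Control 1 (0.48, adjusted p = 0.0394). Without dnOGAh-Tg 4 its change was 0.26 (limma adjusted p = 0.265). Col6a5 (chr9:105733277-105837842), a chain that can stand in for Col6a3, was 56.5, 23.4, 18.7, 27.00 and 5.06 in Control and 166, 112, 51.7, 169 and 129 in dnOGAh-Tg. It rose from 26.1 ± 18.9 to 125 ± 47.8 (2.44, SE 0.50, adjusted p = 0.00388), with only the lowest dnOGAh-Tg library below Control 1. The neighbouring gene Col6a6 had a change of -0.51 (adjusted p = 0.0589), the opposite sign.

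The multiplexins link basement membranes to the matrix beneath, and their C-terminal fragments are known inhibitors of vessel growth. Col15a1 (chr4:47208161-47313167), found in the basement membrane zone of heart muscle and capillaries, was 4620.0, 3646, 5154, 4089 and 3667 in Control and 4589, 5432, 5907, 6870.1 and 6496 in dnOGAh-Tg. It rose from 4235 ± 649 to 5859 ± 898 (0.47, SE 0.13, adjusted p = 0.0192), a call lost without Control 5 (adjusted p = 0.0535) or without dnOGAh-Tg 5 (adjusted p = 0.0522). Col18a1 (chr10:76888012-77002382), the source of endostatin, was 651, 389, 338, 415 and 458 in Control and 447, 468, 467, 958 and 597 in dnOGAh-Tg and was not called (0.35, SE 0.22, adjusted p = 0.273). Neither multiplexin separated the groups. Of the transmembrane collagens Col13a1, Col23a1 and Col25a1 were tested, with changes from -0.66 to 0.03 and no call. Col26a1 had a change of 0.11. In all, 4 of the 33 tested genes, Col4a4, Col8a1, Col8a2 and Col9a2, had all dnOGAh-Tg values above all Control values, against 8.49% of all genes tested. Of these, Col9a2 entered the test only through its dnOGAh-Tg values.

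**Figure D4:**
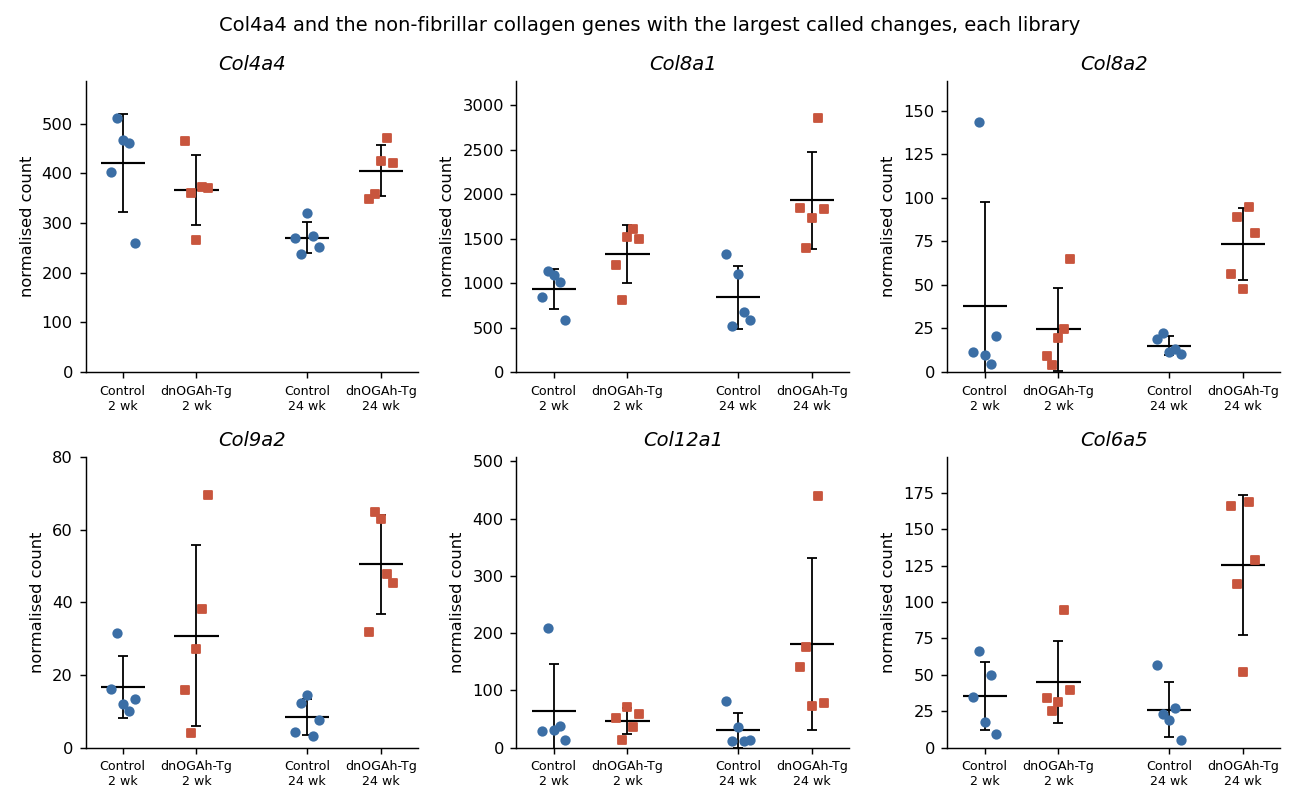
Normalised counts of Col4a4 and of 5 non-fibrillar collagens with the largest called changes at 24 weeks, in each library at both times; points are libraries, horizontal lines the means of 5 and bars the SD. The groups of 24 weeks do not overlap in Col4a4, Col8a1, Col8a2 and Col9a2, and 1 Control library of 2 weeks stands out in Col8a2 and Col12a1.

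Ratios between chains that share a molecule or a fibre were compared within libraries, where the size factor cancels. The ratio of Col1a1 to Col1a2 at 24 weeks was 0.736 ± 0.035 (SD, n = 5) in Control and 0.716 ± 0.076 in dnOGAh-Tg. It differed by less than the spread (log2 difference -0.04, exact permutation p = 0.548, adjusted over 6 tests 0.722). For Col4a1 to Col4a2 the difference was likewise within the spread (exact permutation p = 0.667, adjusted 0.722). The ratio of Col1a1 to Col3a1 was 0.461, 0.534, 0.492, 0.414 and 0.450 in Control and 0.538, 0.682, 0.591, 0.646 and 0.508 in dnOGAh-Tg. Its mean went from 0.470 ± 0.045 to 0.593 ± 0.073, a log2 difference of 0.33, and 4 of the 5 dnOGAh-Tg libraries lay above every Control. The two-sided exact permutation test gave p = 0.0159 and 0.0952 after adjustment, which misses the threshold, and the smallest p that 5 against 5 libraries allow is 0.00794. At 2 weeks the same ratio was 0.498 ± 0.084 in Control and 0.414 ± 0.054 in dnOGAh-Tg (exact permutation p = 0.0873, adjusted 0.262), a difference of the opposite sign.

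**Figure D5:**
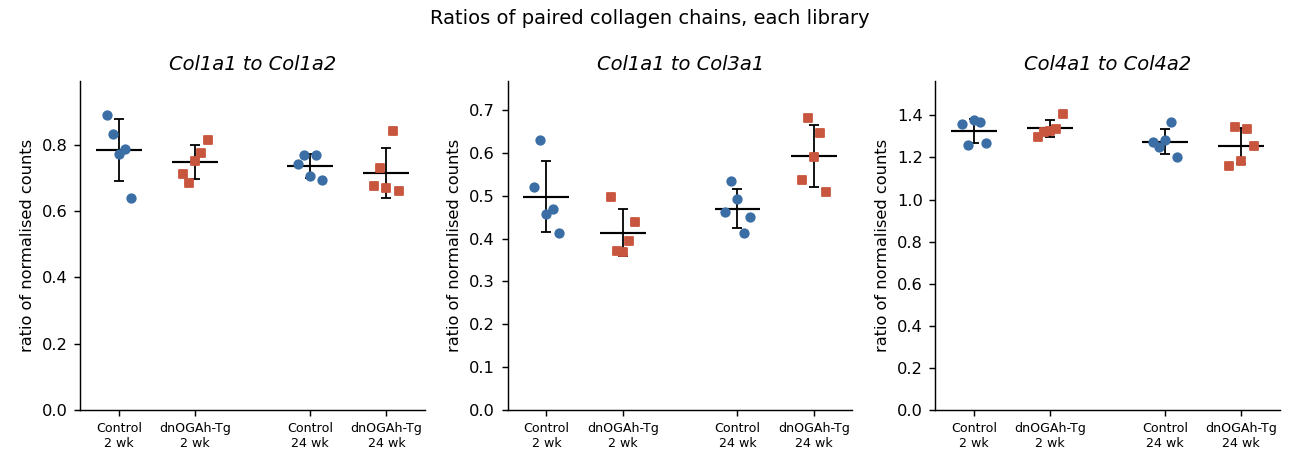
Ratios of normalised counts of Col1a1 to Col1a2, Col1a1 to Col3a1 and Col4a1 to Col4a2 in each library; points are libraries, horizontal lines the means of 5 and bars the SD. The Col1a1 to Col3a1 ratio is higher in 4 of the 5 dnOGAh-Tg libraries than in any Control at 24 weeks, and the Col4a1 to Col4a2 ratio stays between 1.16 and 1.41 in all libraries.

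Neighbouring genes differed in how far their ratio varied. Over the 10 libraries of 24 weeks the ratio of Col6a1 to Col6a2 varied 1.17-fold, about as little as the 1.18-fold of Col4a1 to Col4a2. That of Col3a1 to Col5a2, convergent genes on chromosome 1, varied 1.46-fold. The ratio of Col4a3 to Col4a4 and that of Col4a5 to Col4a6 each varied 2.22-fold. For Col6a5 to Col6a6 it varied 40.6-fold (all ratios with 1 added to each value). These ranges pool both groups, and Col6a5 and Col6a6 had changes of 2.44 and -0.51. Low counts also widen a ratio. Per kilobase in Control, Col4a3 stood at 9.16 and Col6a5 at 2.80, against 2317 for Col4a1 and 638 for Col6a1. What part the level has in the ranges was not tested.

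The second comparison asked the same after 2 weeks of induction. No collagen gene of the 35 tested was called by limma, and 0.0% of the 14584 tested genes were. Unadjusted p lay under 0.05 for 8 of the 35 and for 24.3% of all genes. edgeR called none of the 35 and DESeq2 called Col20a1 as lower, against 1.67% of all genes called lower. The median change of the 35 was 0.04, against -0.02 over all genes. By class, 7 of 8 fibrillar genes had a positive change (median 0.38), and all 6 basement membrane genes had a negative one (median -0.22). The remaining fibrillar gene, Col11a2, had a change of -1.13, the largest in size of the 35 (SE 0.45, limma adjusted p = 0.167). Without Control 2 the count called stayed at 0 and the median of the 35 was 0.25. The share called and the median over all genes in that fit are not given here. Neither value is therefore read as particular to collagens.

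Type I collagen overlapped widely between the groups at 2 weeks. Col1a1 was 4897, 9247, 4880.3, 5663 and 2826 in Control and 5461, 4380.3, 6435, 8726 and 11784 in dnOGAh-Tg (0.43, SE 0.30, adjusted p = 0.371). Col1a2 was 5496, 11084, 6314, 7189 and 4417 in Control and 7669.8, 6385, 8542, 11225 and 14421 in dnOGAh-Tg (0.49, SE 0.25, adjusted p = 0.239). In both, Control 2 and dnOGAh-Tg 4 and 5 were the high libraries. Col3a1 was 9424, 14645, 10655, 12096 and 6848 in Control and 10991, 11832, 17436, 22095 and 26876 in dnOGAh-Tg. Its mean was 10734 ± 2914 in Control and 17846 ± 6762 in dnOGAh-Tg (0.69, SE 0.26, adjusted p = 0.15), and dnOGAh-Tg 3, 4 and 5 lay above every Control. The type V genes followed with smaller differences. Col5a1 was 2078, 2640.4, 2479, 2551 and 1299 in Control and 2443, 1857, 2270.3, 2858 and 3112 in dnOGAh-Tg (0.20). Col5a2 was 1138, 1957, 1333, 1528 and 809 in Control and 1586, 1162, 1658, 2019 and 1905 in dnOGAh-Tg (0.34). Col27a1 was 105, 115, 144, 102 and 71.5 in Control and 129, 151, 157, 151 and 171 in dnOGAh-Tg (0.52, SE 0.18, adjusted p = 0.137), and 4 of its dnOGAh-Tg libraries exceeded every Control.

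Basement membrane collagens leaned the other way without a call. Col4a1 was 21002, 21494, 23785, 25607 and 12385 in Control and 23545, 17362, 14939, 16746 and 18717 in dnOGAh-Tg (-0.17, SE 0.19, adjusted p = 0.581). Col4a2 was 15463, 17077, 17257, 18686 and 9759.6 in Control and 18129, 13147, 11259, 12524 and 13284 in dnOGAh-Tg (-0.18). Control 5 was the lowest library in both, and the groups overlapped. Col4a4 was 402, 512, 467, 461 and 259 in Control and 466, 361, 266, 372 and 370.4 in dnOGAh-Tg (-0.18). The largest of the 6 differences was that of Col4a5 (-0.43, SE 0.20, adjusted p = 0.214).

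The type VIII and FACIT genes that rose at 24 weeks were more mixed at 2 weeks. Col8a1 was 839, 1132, 1094, 1017 and 584 in Control and 1198, 812, 1519, 1609 and 1498 in dnOGAh-Tg (0.51, SE 0.21, adjusted p = 0.181), with dnOGAh-Tg 1, 3, 4 and 5 above every Control. Col8a2 was 11.2, 144, 9.89, 4.54 and 20.7 in Control and 9.05, 4.01, 19.6, 24.4 and 64.97 in dnOGAh-Tg (-0.08). Its Control mean rested on Control 2, and without that library the change was 0.65, adjusted p = 0.531. Col12a1 was 28.7, 209, 30.8, 37.2 and 13.5 in Control and 52.6, 14.05, 71.9, 36.1 and 59.3 in dnOGAh-Tg (0.05). Here too Control 2 stood far above the rest, and without it the change was 0.65, adjusted p = 0.36. Col9a2 was 16.2, 31.5, 12.1, 9.99 and 13.5 in Control and 15.8, 4.01, 27.1, 38.1 and 69.5 in dnOGAh-Tg (0.50). Col14a1 was 333, 912, 463, 461 and 274 in Control and 587, 406, 542, 646 and 963 in dnOGAh-Tg (0.44). Col16a1 was 418, 909, 461, 511 and 274 in Control and 502, 444, 496, 626 and 779 in dnOGAh-Tg (0.23). All 3 overlapped between the groups. Col20a1, a FACIT gene, was the 1 tested collagen whose groups did not overlap, with 58.7, 74.3, 69.2, 38.1 and 39.4 in Control and 34.5, 34.1, 24.3, 34.2 and 30.8 in dnOGAh-Tg, against 1.96% of all genes lower without overlap (-0.76, SE 0.24, adjusted p = 0.127).

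Type VI collagen and the multiplexins overlapped at 2 weeks. Col6a1 was 2932, 4479, 3419, 3639 and 2009 in Control and 3568, 3119.9, 3403, 4216 and 4878 in dnOGAh-Tg (0.25). Col6a2 was 3296, 5602, 3646, 4006 and 2442 in Control and 3913, 3841, 3960.3, 5470.4 and 6034 in dnOGAh-Tg (0.32). In both, Control 2 lay near the top of the range and Control 5 at the bottom. Col6a3 was 1312, 1467, 1747, 1629.8 and 893 in Control and 1909, 1584, 1626, 1969.9 and 2421 in dnOGAh-Tg (0.45). Col6a5 was 34.95, 66.7, 17.6, 49.9 and 9.32 in Control and 33.9, 25.1, 31.7, 94.7 and 39.9 in dnOGAh-Tg (0.46). The last had 1 dnOGAh-Tg library far above the others. Col15a1 was 4916, 6335, 5729.9, 5620.3 and 3235 in Control and 6419, 5373, 4760.0, 5811 and 6048 in dnOGAh-Tg (0.17). Col18a1 was 432, 1134, 567, 638 and 387 in Control and 522, 376, 439, 626 and 617 in dnOGAh-Tg (-0.21). Both multiplexins overlapped between the groups.

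The title codes divided the libraries of 2 weeks. Within F11, with 2 Control and 2 dnOGAh-Tg libraries, 2 of 8 fibrillar genes had a positive change (median -0.14). Within F14, with 3 Control and 2 dnOGAh-Tg libraries, 7 of 8 did (median 0.69). Col3a1 changed by -0.04 within F11 and by 1.34, SE 0.25, adjusted p = 0.0237 (limma) within F14. The basement membrane genes had a median of -0.11 within F11 and -0.17 within F14. F13 held 1 dnOGAh-Tg library and no Control. With all 4 F11 libraries left out, 7 of 35 collagens were higher (Col1a1, Col1a2, Col3a1, Col8a1, Col9a2, Col14a1 and Col26a1) and 2 lower (Col11a2 and Col6a6), against 10.9% of all genes higher and 11.4% lower. Col3a1 then changed by 1.18, SE 0.23, adjusted p = 0.00909 (limma), and Col8a1 by 0.83, SE 0.22, adjusted p = 0.0258 (limma). With only the F11 dnOGAh-Tg libraries left out, 6 were higher and 4 lower, against 16.1% and 17.7% of all genes. Leaving out dnOGAh-Tg 1 alone gave 2 higher, Col3a1 (0.85, adjusted p = 0.0291) and Col27a1 (0.58, adjusted p = 0.0438), and 3 lower (Col20a1, Col4a5 and Col6a6), against 11.3% and 11.8% of all genes. Oga was lower in the F11 dnOGAh-Tg libraries, as given above, and its part in these differences was not tested.

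The third comparison asked whether the change at 24 weeks differed from that at 2 weeks. None of the 33 collagens tested at both times was called for this difference, against 1.76% of the 14339 genes tested (limma). 9 of the 33 had an unadjusted p under 0.05, against 15.4% of all genes, edgeR called 0 (1.52% of all genes) and DESeq2 called 3 as higher (Col4a4, Col20a1 and Col22a1, against 2.18%). The smallest p was that of Col20a1 (1.22, SE 0.34, adjusted p = 0.0714), followed by Col22a1 (1.92, SE 0.54, adjusted p = 0.0772) and Col4a4 (0.76, SE 0.23, adjusted p = 0.102). Without Control 5 of 2 weeks 4 genes were called as higher, these 3 and Col4a5, against 1.88% of all genes. All 6 basement membrane genes had a more positive change at 24 weeks (median 0.80, against 0.01 over all genes). The major chains differed least, by 0.21 in Col4a1 and 0.24 in Col4a2, and the minor chains by 0.76 to 0.91. The fibrillar genes had a median difference of 0.23, from -0.18 in Col3a1 and -0.20 in Col5a3 to 0.60 in Col11a2. Col12a1 (2.61, SE 0.93, adjusted p = 0.164), Col8a2 (2.29, SE 0.95, adjusted p = 0.241) and Col9a2 (2.09, SE 0.74, adjusted p = 0.165) had large differences with large errors.

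Genes that act on collagen were read from the same fits, and the count called in each list stands beside the 11.3% of all tested genes that rose and the 11.1% that fell. Of 20 tested genes of procollagen modification and folding, 5 rose and 1 fell at 24 weeks. P3h2, a prolyl 3-hydroxylase with a preference for type IV collagen, was 353, 222, 240.3, 273 and 279.8 in Control and 1475, 915, 1051, 1185 and 1072 in dnOGAh-Tg and rose from 274 ± 50.2 to 1139.7 ± 210.5 (2.05, SE 0.15, adjusted p = 2.09e-06). Its groups lay far apart. P4ha1, a subunit of prolyl 4-hydroxylase, rose from 2776 ± 282 to 4244 ± 485 (0.61, SE 0.10, adjusted p = 0.000878). Plod2, a lysyl hydroxylase of the telopeptides, rose from 1011 ± 223 to 1795 ± 308 (0.84, SE 0.16, adjusted p = 0.00267). P3h3 also rose (0.55, SE 0.13, adjusted p = 0.0101). The remaining genes called are named after their values were seen. Colgalt1, a collagen galactosyltransferase, rose (0.23, SE 0.07, adjusted p = 0.0301), a call lost in 6 of the 10 fits that left out 1 library. P3h4, a partner protein of the prolyl 3-hydroxylase family, fell (-0.49, SE 0.14, adjusted p = 0.0248), a call lost in 5 of the 10. The changes of P3h2 and Plod2 were larger at 24 than at 2 weeks (1.40, SE 0.22, adjusted p = 0.0027 and 1.05, SE 0.22, adjusted p = 0.0178, limma), and both calls held when any 1 library was left out.

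Against the same 11.3% of all genes rising, 3 of 7 tested genes of propeptide cleavage rose, Pcolce2 (0.74, SE 0.12, adjusted p = 0.000822) and Pcolce (0.64, SE 0.15, adjusted p = 0.00915), enhancers of C-propeptide removal, and Adamts2 (0.72, SE 0.24, adjusted p = 0.0444), the N-propeptidase. Of 6 tested cross-linking genes Loxl3 (0.97, SE 0.24, adjusted p = 0.01) and Loxl1 (0.72, SE 0.18, adjusted p = 0.0107) rose, while Lox was not called (-0.02). Among 9 tested genes of breakdown and uptake 4 rose: the protease genes Ctsk (0.88), Mmp2 (0.64) and Mmp14 (0.51), and Mrc2 (0.69), an endocytic collagen receptor. The call of Adamts2 was lost in 6 and that of Mmp14 in 3 of the 10 fits that left out 1 library. Of 8 tested collagen receptors Ddr1 (0.61, SE 0.09, adjusted p = 0.000532) and Itga11 (0.87, SE 0.15, adjusted p = 0.00105) rose. Of 11 tested partners in the basement membrane Lama5, a laminin chain, fell from 3943 ± 554 to 2225 ± 249.7 (-0.82, SE 0.11, adjusted p = 0.000245). Sparc, which binds type IV collagen, rose (0.40, SE 0.13, adjusted p = 0.0439), a call lost in 8 of the 10 fits. With 1 gene of 11 in each direction, the basement membrane partners lay near the shares of all genes. No gene of these 6 lists was called at 2 weeks, when 0 of all 14584 tested genes were called (limma), so this would hold for any list.

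Marker genes of cell types also differed between the groups at 24 weeks. Among all tested genes 11.3% rose and 11.1% fell. Of 10 fibroblast markers 5 rose (median change of the list 0.56), and their summed level was 71648 to 98656 in Control and 68883 to 145973 in dnOGAh-Tg. Of 8 tested markers of activated fibroblasts 6 rose (median 1.47), with sums of 3703 to 8252 in Control and 8131 to 18265 in dnOGAh-Tg. Cilp, a matrix protein gene of that list, rose from 165 ± 89.9 to 1786 ± 458, and Meox1, a transcription factor gene, rose from 663 ± 107 to 1579.6 ± 454. Endothelial markers fell in 5 of 8 (median -0.39), with sums of 27056 to 30631 in Control and 18567 to 25065 in dnOGAh-Tg. Of the 10 mural markers 1 rose and 3 fell (median -0.39), with sums of 44276 to 55682 in Control and 23640 to 37977 in dnOGAh-Tg. Among ventricular cardiomyocyte markers 3 of 7 fell and none rose, with sums of 1587579 to 2108784 in Control and 1121157 to 1584654 in dnOGAh-Tg. Of 3 tested valve, cartilage and tendon markers 1 rose, with sums of 588 to 709 in Control and 756 to 1237 in dnOGAh-Tg. Of 9 macrophage markers 1 rose, near the share of all genes, with sums of 3713 to 7148 in Control and 5173 to 8604 in dnOGAh-Tg. The lists of epicardial, Schwann cell, adipocyte and lymphocyte markers held no called gene. Of 3 tested atrial markers 2 rose, with sums of 4600.3 to 19276 in Control and 148119 to 307096 in dnOGAh-Tg. The 3 changes ran from 1.91 to 6.33, and none of the 3 overlapped between the groups, against 8.49% of all tested genes higher without overlap. Nppa (change 3.97) and Myl4 (1.91) were among those tested, and are not named here as the 2 called. Such a sum follows its most abundant genes. Myl7, of the same list, stayed low at 24 weeks outside dnOGAh-Tg 4, as given above. At 2 weeks no marker was called, as 0 of all 14584 tested genes were (limma), so this says nothing particular to the markers. The activated fibroblast sums of that time were 2961 to 9165 in Control and 3795 to 13477 in dnOGAh-Tg, with 6 of 9 changes positive (median 0.78). The macrophage sums were 3454 to 4915 in Control and 4496 to 9053 in dnOGAh-Tg, with 9 of 9 changes positive (median 0.80). The other lists are not given for 2 weeks. No marker was at 0 in every library. What part these cell types have in the collagen changes was not tested.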

How the data were processed

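Bulk RNA of mouse left ventricle was sequenced in 20 libraries, 5 per group. The submitters' processing notes name STAR 2.7.3a, cutadapt 2.6, Trim Galore 0.6.6, the build GRCm39, R 4.0.3 and DESeq2. Counter, annotation release and strand: not given in the sources used here. The authors deposited 1 table per time of normalised signal, that is, gene counts divided by size factors. In each library 100.0% of values came out as whole reads (within 0.01) when divided by its step.

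Each time was tested in its own table with limma 3.58.1 (trend, two-sided) on log2(value + 1), which understates changes of low genes, with genes at 10 or more in at least 5 of 10 libraries and Benjamini-Hochberg adjustment over all tested genes. The difference between times was a contrast of 1 fit over 4 groups. edgeR 4.0.16 and DESeq2 1.42.0 on recovered reads, other pseudocounts (0.5, 5), filters (none, 50), scalings, blocks and left-out libraries were alternatives. Ratios were tested by exact permutation. Fits were tested on simulated data. Lengths are exon unions of GENCODE M21. Motif counts used RefSeq windows of GRCm38.p6 as text only. Fixed genes and those called at either time, up to 6 per class by smallest p, are given per library, and up to 4 genes of a pathway or marker list are named. Members and lists were chosen with earlier results of these data known.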

Additional observations from a re-analysis of the deposited data

Results flagged for a closer look

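In groups of 5, a library whose gap to its neighbour exceeds 0.71 of the group's range was looked at again. This held for 7 of the 84 group values examined, where chance gives about 1 in 20. At 2 weeks Control 2 stood out in Col12a1 (209 normalised counts, next highest 37.2) and in Col8a2 (144, next highest 20.7). The same library held the atrial and cartilage transcripts described above. In dnOGAh-Tg at 2 weeks replicate 4 stood out in Col6a5 (94.7, next highest 39.9). At 24 weeks dnOGAh-Tg 4 stood out in Col12a1 (439), Col4a1 (23912) and Col5a1 (2779). Control 1 stood out in Col14a1 (667, next highest 354).

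P3h2 and Plod2 differed between times in the test of the difference itself, by 1.40 and 1.05 on the log2 scale (limma).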

How the results depend on the processing

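The count of 14 collagens higher at 24 weeks ran from 11 (without Control 5) to 17 (without Control 1) when 1 library was left out. It was 9 at an adjusted p under 0.01. Of all genes 11.3% rose in the main fit, 9.65% without Control 1 and 6.38% at the stricter threshold (limma). The share of all genes without Control 5 is not given here. Collagens lower at 24 weeks numbered 1 with DESeq2 (Col6a6, against 13.1% of all genes) and 0 to 1 with 1 library left out. At 2 weeks the count higher was 7 without all F11 libraries (10.9% of all genes) and 6 without the F11 dnOGAh-Tg libraries (16.1%). It was 0 to 2 with 1 left out, and the 2 came without dnOGAh-Tg 1 (11.3%). The count lower was 1 with DESeq2 (1.67% of all genes), and 2 (11.4%) and 4 (17.7%) without those F11 libraries, in the same order. It was 0 to 3 with 1 left out, and the 3 came without dnOGAh-Tg 1 (11.8%). For the difference between times the count higher was 3 with DESeq2 (2.18% of all genes) and 0 to 4 with 1 library left out. The 4 came without Control 5 of 2 weeks (1.88%). With filters of 50, Col8a2 and Col9a2 were not tested, and with no filter Col7a1 and Col11a1 were called at 24 weeks.

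Same-numbered libraries did not all deviate together, though at 24 weeks they share a title code: correlations ran from -0.15 to 0.52 at 24 weeks and from -0.21 to 0.38 at 2 weeks, and 2 of 5 and 1 of 5 pairs correlated best with their own number. At 24 weeks the replicate block is the same fit as the title code block given above, with 17 collagens higher, Col3a1, Col4a3 and Col5a2 added. With the replicate block 0 at 2 weeks and 0 in the difference were called.

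Some uncalled changes turned sign, and the cause was not tested. At 24 weeks, with 1 library left out, Col4a1 ran from -0.11 to 0.11 and Col4a2 from -0.064 to 0.14. At 2 weeks Col12a1 was -0.0802 with quantile normalization, -0.40 with edgeR, -0.44 with DESeq2 and -0.20 with the title code block, and -0.32 to 0.65 with 1 left out. Without all F11 libraries Col18a1 was 0.090 and Col8a2 1.57 at 2 weeks, and Col8a2 was 0.80 without the F11 dnOGAh-Tg libraries. With 1 left out they were -0.36 to 0.029 and -0.56 to 0.65. In the difference between times, without all F11 libraries, Col1a1 was -0.18 and Col1a2 -0.035 (0.42 and 0.40 with all libraries), Col27a1 -0.073, Col5a1 -0.088, Col6a1 -0.064 and Col6a2 -0.13. Without the F11 dnOGAh-Tg libraries Col27a1 was -0.030 and Col5a1 -0.00196. With 1 left out Col27a1 ran from -0.066 to 0.19 and Col6a3 from -0.20 to 0.057. The log2 difference of Col1a1 to Col1a2 at 2 weeks was 0.10 without all F11 libraries and 0.0031 without the F11 dnOGAh-Tg libraries. With 1 left out, Col4a1 to Col4a2 ran from -0.0057 to 0.027 at 2 weeks and from -0.049 to 0.0045 at 24 weeks.

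Depth limits the low members: those under 10 normalised counts in 6 or more of the 10 libraries of a time were not tested.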
